A study of Mus musculus with 8 samples.

Results

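The core and linker histone genes that lie in the 4 mouse histone clusters were followed through red cell maturation in single-cell RNA counts. They are all genes of the deposited table whose symbol begins with Hist1h, Hist2h, Hist3h or Hist4h, and they number 65 of 19669 genes. The linker family H1 has 6 members, H2A has 17, H2B has 17, H3 has 12 and H4 has 13. All 65 matched GENCODE M21 gene models on GRCm38, with 52 on chromosome 13 (Hist1, 21715763 to 23764406), 10 on chromosome 3 (Hist2, 96219865 to 96270132), 2 on chromosome 11 (Hist3, 58948920 to 58956830) and 1 on chromosome 6 (Hist4, 136801553 to 136804415). Together they gave 950186 of 248384567 UMIs (unique molecular identifiers, each standing for 1 captured RNA molecule), and no member was at 0 in all cells.

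The cells came from erythroblastic islands, in which red cell precursors mature around a macrophage, of male Sle1.Yaa mice, a lupus-prone strain. Islands were isolated on albumin gradients and dissociated with EDTA and gentle force before 10x Genomics v3.1 libraries were made. Per the labels, mice with a human TLR8 transgene (labelled Anemic) gave 2 bone marrow and 2 spleen libraries, and mice without it (labelled Non-Anemic) gave 3 bone marrow libraries and 1 spleen library. All carry the Sle1.Yaa background. The sources used here do not name the transgene's promoter or the age of the mice. The human TLR8 transcript was not analysed here. The table's 24942 columns are named by cell barcode alone, so no cell could be tied to a genotype or tissue. All cells were therefore treated as 1 sample, with no test and no p-value, and no comparison between Anemic and Non-Anemic mice was made. The barcodes fall into 8 sorted stretches of 447 to 6787 cells, used below as unnamed libraries 1 to 8 in file order to show the spread. They are not replicates of any one condition, since nothing ties them to the labels.

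Histone proteins package newly made DNA, with H2A, H2B, H3 and H4 forming the nucleosome core and H1 binding the linker DNA between cores. Most genes of these clusters are transcribed during DNA synthesis. Their mRNAs end in a conserved stem-loop that is bound by the protein SLBP, and they generally carry no poly(A) tail, although several of the genes can also give polyadenylated transcripts. The libraries here were primed from poly(A), so the UMIs report the histone RNA that such priming captured. Erythroblasts divide as they fill with haemoglobin, then stop dividing, condense their chromatin and expel the nucleus.

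The annotated 3′ ends of members whose highest stage was 60 to 80% globin are set beside those of members that peaked earlier. The highest stage is that of the level per UMI outside globin. These ends are shown because the models differ in how far they run past the stem-loop. Capitals mark the 16-base stem-loop.
Hist1h1c: caaaaGGCTCTTTTCAGAGCCaccactccc
Hist1h2ac: ccaaaGGCTCTTTTCAGAGCCcccactttt
Hist3h2a: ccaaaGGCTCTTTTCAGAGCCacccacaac
Hist3h2ba: ccaaaGGCTCTTTTCAGAGCCaccttccaa
Hist1h2ap: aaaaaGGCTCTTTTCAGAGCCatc
Hist2h2ac: aaaaaGGCTCTTTTTAGAGCCaccaaatct
Hist1h3a: ccaaaGGCTCTTTTCAGAGCCacacacgat
These lie on GRCm38 at chr13:23739507-23739536 (plus strand) for Hist1h1c, chr13:23683468-23683497 (minus) for Hist1h2ac, chr11:58955167-58955196 (plus) for Hist3h2a, chr11:58949344-58949373 (plus) for Hist3h2ba, chr13:21833026-21833049 (minus) for Hist1h2ap, chr3:96220409-96220438 (minus) for Hist2h2ac and chr13:23761881-23761910 (minus) for Hist1h3a. All are in the 3′ untranslated part of single-exon, protein-coding genes. The first 4, highest at 60 to 80% globin by stage, have models that continue for 840, 2010, 1643 and 169 bases after the loop, in the order printed. The other 3 stop 3, 57 and 37 bases after it. Long models are not limited to such members, since those of Hist1h1d, Hist1h2be, Hist1h1e and Hist1h4d, all highest at 20 to 60% globin, continue for 4884, 1861, 1153 and 770 bases. A stem-loop was found in the annotated transcripts of 44 members. Several of the 21 models without one, that of Hist1h1b among them, stop at the stop codon, so a loop after it could not be found. In 26 of them it was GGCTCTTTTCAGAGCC, in 7 it was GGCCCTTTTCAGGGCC and in 6 it was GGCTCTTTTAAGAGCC, with 3 other forms in the remaining 5.

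Many members are close copies of each other, which limits what a count for 1 gene means. For 12 members fewer than 10% of the 60-base windows in the last 400 bases of the transcript occurred in no other GENCODE transcript, and for 19 members more than 90% did. The 12 are Hist1h1e, Hist1h2ah, Hist1h2ao, Hist1h2ap, Hist1h2bq, Hist1h3h, Hist1h4m, Hist1h4n, Hist2h2aa1, Hist2h2aa2, Hist2h3b and Hist2h3c1, and their values are uncertain. The sources used here do not say how reads that fit several genes were counted. Hist1h1e overlaps a transcript of Hist1h2be on the same strand.

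The erythroid-like cells numbered 10186, 40.8% of all cells, in 9 clusters formed without the histone members. They were ordered by the share of their UMIs that came from 10 globin genes, the measure used here for maturation. The stages held 1120 cells under 2% globin, 1828 cells at 2 to 20%, 3221 at 20 to 60%, 2120 at 60 to 80% and 1897 at 80% or more. Because globin fills late cells, levels are UMI counts per 1000000 UMIs outside globin, written CPM below and not divided by transcript length. The order of 2 members is thus an order of captured UMIs. Median UMIs outside globin per cell were 3452, 8090, 5148, 2332 and 812 over the 5 stages.

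Libraries 6 and 7 stood apart in the most abundant member, Hist1h2ap, an H2A gene. At 2 to 20% globin it made up 17.5 and 26.2% of their histone UMIs, against 50.3 to 58.2% in the 5 other libraries with at least 20 such cells. At 20 to 60% the shares were 16.7 and 24.9% against 42.4 to 55.8% in 6 libraries. The gap was not limited to red cells. In all 11 non-erythroid classes that could be compared, Hist1h2ap had a lower share in library 6 or 7 than in any other library. The histone level without Hist1h2ap overlapped between these libraries and the others, at 10226 and 12090 against 6812 to 12030 CPM at 20 to 60% globin. Which mice or tissue these libraries came from is not known, and several results that rest on Hist1h2ap are given below with and without them. The joined globin bins, the ratios of the summed level between stages and the cycle-range levels are given only with them.

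Summed over all members, histone RNA was highest at the 20 to 60% globin stage and lower on either side of it. The level was 2779 CPM under 2% globin (95% Poisson interval 2745 to 2812), 8574 at 2 to 20% (8533 to 8614), 20028 at 20 to 60% (19966 to 20089), 11439 at 60 to 80% (11353 to 11525) and 2282 at 80% or more (2214 to 2351). These intervals cover counting error only. The spread between libraries was far wider, from 13620 to 26193 (median 17949) at 20 to 60% globin and from 7446 to 19082 (median 11449) at 60 to 80%. In all 7 libraries with enough cells the level at 20 to 60% was above that at 2 to 20%, and in 5 of 7 it was above that at 60 to 80%. The 2 exceptions were library 1, with 21 cells at 60 to 80%, and library 6. Without libraries 6 and 7 the 5 levels were 3241, 11275, 22756, 10206 and 1897 CPM.

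**Figure D1:**
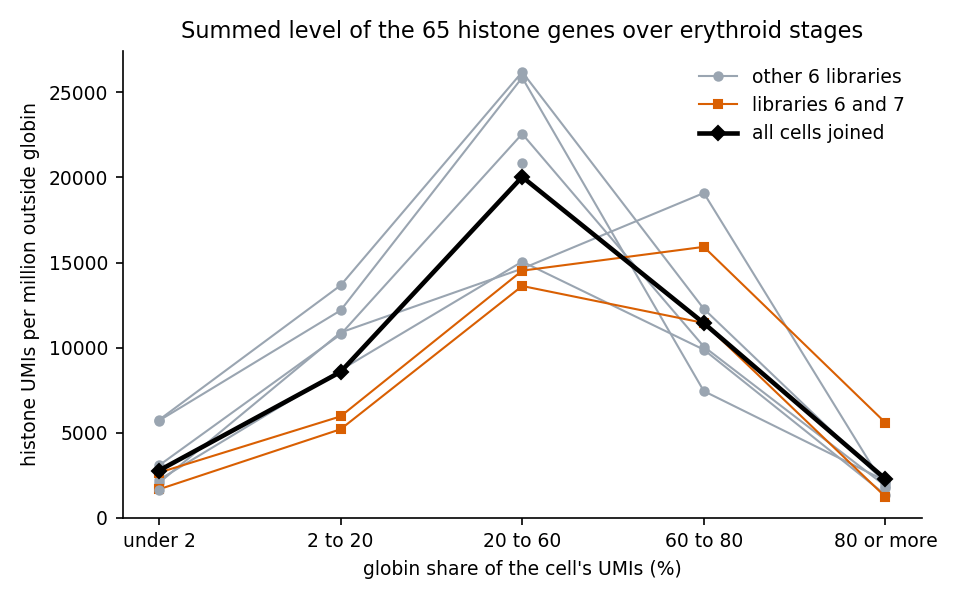
Summed level of the 65 histone genes, in CPM outside globin, over the 5 globin stages; each line is an unnamed library with at least 20 cells, libraries 6 and 7 are orange squares and all cells joined are black diamonds. The joined level is highest at 20 to 60% globin (20028) and 6 of the 8 libraries have their highest value there. Library 8 is among them but has values only under 2% and at 20 to 60%.

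Cells were also thinned to equal depth, which leaves each cell's expected histone share as it was. The mean counts below thus restate the levels with cells weighted alike, and their order is no separate check. After each cell was thinned to 500 UMIs outside globin, with 455 shallower erythroid cells left out (302 of them at 80% globin or more), the mean histone count per cell was 1.25, 3.88, 10.2, 5.43 and 1.08 over the stages. Cells with at least 1 histone UMI made up 57.3, 83.9, 93.7, 88.4 and 49.6% after thinning, and 86.7, 94.9, 98.9, 98.5 and 64.5% before it. In mature B-like cells, of which 22.2% had a UMI of the division markers Mki67 or Top2a, the share was 33.9% after thinning and 89.5% before it, and in macrophage-like cells it was 34.6 and 66.3%. Counted per cell without thinning, histone UMIs averaged 23.8, 93.8, 127, 31.9 and 2.24.

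In 10-point bins of globin share, histone transcripts peaked between those of DNA replication and mitosis in CPM outside globin. This order was not computed on other scales. Median UMIs outside globin per cell went from 9857 at 10 to 20% globin to 4146.5 at 50 to 60%. A list of 36 replication genes (MCM helicase, polymerase and clamp genes among them) was highest at 10 to 30% globin, with 10808 and 10821 CPM in the 2 bins. Histone members were highest at 40 to 50%, with 25772 CPM in 849 cells. A list of 25 mitosis genes was highest at 50 to 60%, with 24320 CPM in 1026 cells. From 50 to 60% to 70 to 80% globin the histone level went from 23454 to 7164 and the replication level from 5603 to 803 CPM. Histone UMIs per replication UMI numbered 0.398 under 2% globin and 6.64 at 60 to 80%. Within libraries, 5 had at least 20 cells in each bin. The replication peak lay in an earlier bin than the histone peak in all 5 of these, and the histone peak lay in an earlier bin than the mitosis peak in 4, while both fell in the same bin in library 7. Of the others, library 8 had 1 bin filled, so its peaks had to coincide. Library 1 had 5, none from 30 to 80% globin, so its shared histone and mitosis bin cannot give their order. In library 2, with 8 bins, both peaks fell at 40 to 50%.

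**Figure D2:**
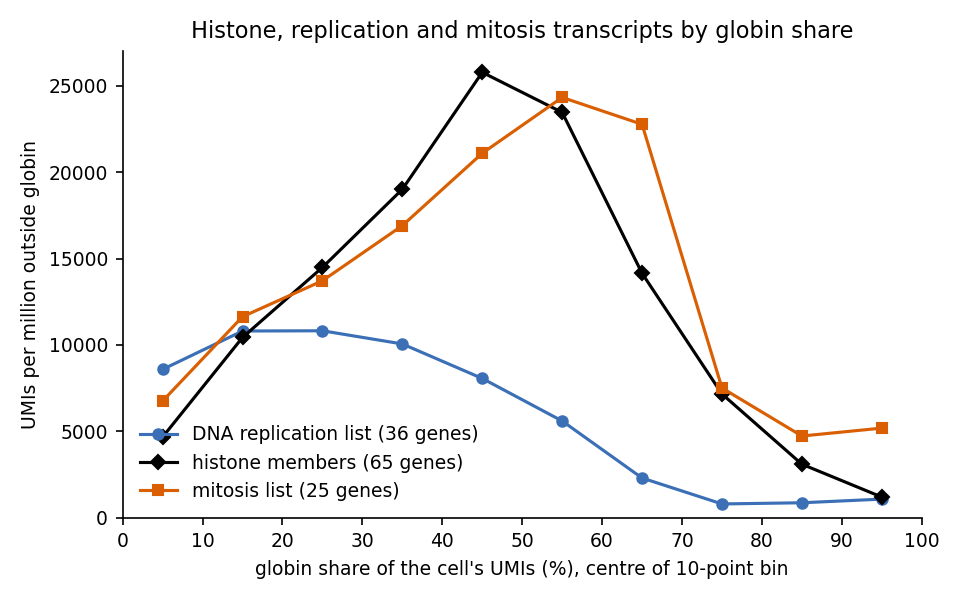
CPM outside globin in 10-point bins of globin share for the 65 histone members (black diamonds), 36 replication genes (blue circles) and 25 mitosis genes (orange squares), all erythroid cells joined. Replication genes are highest at 10 to 30%, histone members at 40 to 50% (25772) and mitosis genes at 50 to 60% (24320).

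Of the 65 members, 50 reached 20 CPM in at least 1 erythroid stage or other dividing class, and 45 of these had their highest erythroid stage at 20 to 60% globin. The other 5, Hist1h1c, Hist1h2ac, Hist1h2bc, Hist3h2a and Hist3h2ba, were highest at 60 to 80% over the joined cells in CPM outside globin. In CPM over all UMIs, 0 of 41 measured members were called higher at 60 to 80% than at 20 to 60% globin. There 26 were lower, against 1.43% of all genes higher and 52.6% lower. Between 60 to 80% and 20 to 60% globin the CPM level was higher in 7 of 7 libraries for Hist1h1c and Hist1h2bc and in 6 of 7 for Hist1h2ac and Hist3h2a, but in only 3 of 7 for Hist3h2ba. By 10-point bins, 34 of the 50 were highest at 40 to 50% and 14 at 50 to 60%. Hist1h2bc was highest at 60 to 70% (743 CPM) and Hist1h1c at 70 to 80% (1461 CPM). The other 3 of the 5 were highest in the 50 to 60% bin, with 541 (Hist3h2ba), 291 (Hist1h2ac) and 168 CPM (Hist3h2a). The 15 members below the threshold gave 3752 erythroid UMIs in all. The 12 most abundant members made up 83.8% of erythroid histone UMIs.

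The linker histones differed in their timing. H1 proteins bind where DNA enters and leaves the nucleosome and help compact chromatin. Hist1h1c was at 112, 223, 661, 1237 and 426 CPM over the stages. Its library values at 2 to 20% globin had a lowest, median and highest of 161, 213 and 291, and at 60 to 80% of 693, 1101 and 1836, so the 2 stages did not overlap. Its share of histone UMIs was higher at 60 to 80% than at 20 to 60% globin in 7 of 7 libraries, going from between 2.47 and 6.80% to between 5.69 and 16.6%.

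Hist1h1b, the most abundant linker gene, was at 558, 1068, 1732, 954 and 144 CPM, and its library values at 2 to 20% globin (651, 1025 and 1585 as lowest, median and highest) overlapped those at 60 to 80% (352, 634 and 2478). Hist1h1a was at 56.6, 166, 258, 82.1 and 15.6 CPM, and its library values at 60 to 80% (35.8, 81.6 and 169) reached those at 20 to 60% (154, 245 and 366). The share of histone UMIs held by Hist1h1a and by Hist1h1b was lower at 60 to 80% than at 20 to 60% globin in 7 of 7 libraries for both genes, while that of Hist1h1c was higher in all of these. The share of Hist1h1d was also higher in 7 of 7, and that of Hist1h1e was higher in 4 and lower in 3. By level, Hist1h1e was at 282, 494, 883, 792 and 207 CPM and Hist1h1d at 53.2, 173, 433, 350 and 49.4, and both peaked at 20 to 60%, where their libraries ran from 506 to 1422 (median 819) and from 233 to 502 (median 408). Hist1h1t, a testis linker histone, was below 2 CPM in every stage.

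**Figure D3:**
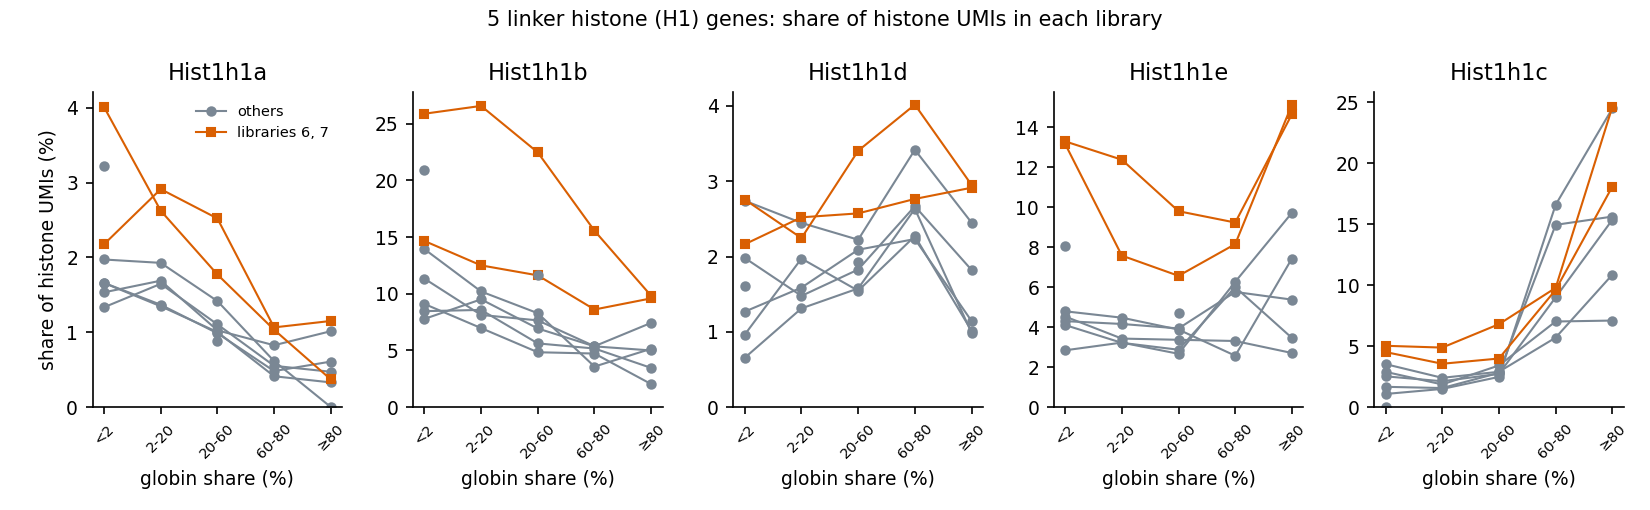
Share of histone UMIs (%) held by 5 linker histone genes over the globin stages, 1 line per unnamed library with at least 20 cells, libraries 6 and 7 in orange. From the 20 to 60% to the 60 to 80% stage Hist1h1a and Hist1h1b lines fall and Hist1h1c and Hist1h1d lines rise, in 7 of 7 libraries each, and Hist1h1e lines rise in 4 of 7.

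H2A held the largest family share of histone UMIs in the middle stages over the joined cells, and Hist1h2ap held most of that. In libraries 6 and 7 joined, H1 held more than H2A at 2 to 20% globin (40.7 against 36.3%) and at 60 to 80% (36.5 against 34.4%) and less at 20 to 60% (35.2 against 39.0%), and Hist1h2ap held 21.1, 16.2 and 21.1% of histone UMIs in these. Hist1h2ap was at 860, 3788, 9228, 3325 and 469 CPM over the stages. Its library values at 20 to 60% globin ran from 2431 to 14422 with a median of 8538, and at 60 to 80% from 2177 to 10191 with a median of 3754, so the ranges overlapped. Without libraries 6 and 7 the joined values were 1624, 6171, 12077, 3748 and 513. Hist1h2ae followed at 194, 724, 1887, 864 and 155, and Hist1h2ab at 40.5, 128, 332, 189 and 20.4. Their library values at 20 to 60% had a lowest, median and highest of 897, 1502 and 2508 and of 144, 329 and 531. Hist2h2ac, from the chromosome 3 cluster, was at 55.2, 121, 198, 95.9 and 8.05, with 98.8, 180 and 264 over libraries at 20 to 60% and 27.2, 61.3 and 218 at 60 to 80%, which overlap. Hist1h2ac and Hist3h2a differed from these in their timing. Hist1h2ac was at 58.1, 206, 257 and 59.1 CPM from the 2 to 20% stage on, and its 60 to 80% library values (170, 240 and 289 as lowest, median and highest) lay above all those at 2 to 20% (24.3, 56.4 and 103). Hist3h2a was at 5.64, 20.1, 104, 144 and 43.5 CPM, with libraries from 30.6 to 216 (median 159) at 60 to 80% against 10.3 to 40.9 (median 21.7) at 2 to 20%, so these 2 stages overlapped. At 20 to 60% globin Hist2h2aa1 had 161, Hist1h2af 86.4, Hist1h2an 82.6, Hist1h2ak 70.8, Hist1h2ad 35.3 and Hist1h2ag 22.1 CPM.

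The H2B family holds 2 of the 5 genes that were highest at 60 to 80% globin by stage. Hist1h2bc, whose model has 2 exons and no stem-loop in the spliced transcript, was at 42.9, 83.6, 376, 638 and 230 CPM. At 60 to 80% globin its library values were 490, 601 and 918 (lowest, median, highest), all above the 39.0 to 129 seen at 2 to 20%. Hist3h2ba was at 79.7, 347, 357 and 77.8 CPM from the 2 to 20% stage on, with 142, 266 and 769 over libraries at 60 to 80% and 52.0, 73.5 and 150 at 2 to 20%, which overlap. All other H2B genes named were highest at 20 to 60%. There Hist1h2bb had 115, Hist1h2bj 114, Hist1h2be 107, Hist1h2bn 98.8, Hist1h2bm 73.1, Hist2h2bb 68.7, Hist1h2br 63.3, Hist1h2bp 35.7, Hist1h2bh 33.1, Hist2h2be 29.2, Hist1h2bg 29.2, Hist1h2bk 27.9, Hist1h2bf 27.7 and Hist1h2bl 26.3 CPM.

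H3 and H4 genes were low in these libraries and nearly all followed the summed curve. Hist1h3c led the H3 genes with 32.7, 97.9, 214, 129 and 12.3 CPM. Hist1h3a was at 15.9, 50.9, 90.3, 29.6 and 6.98, and Hist1h3b at 8.98, 32.2, 71.5, 29.4 and 2.68. Over libraries at 60 to 80% their values were 18.5, 30.6 and 53.2 and 16.8, 42.6 and 61.2, overlapping those at 2 to 20% (40.5, 45.3 and 67.4, and 20.2, 34.7 and 45.3). At 20 to 60% globin Hist1h3e had 161, Hist1h3d 134, Hist1h3f 106, Hist1h3i 71.6, Hist2h3b 42.8, Hist1h3g 35.5 and Hist2h3c1 25.4 CPM. Among H4 genes, Hist1h4d was at 52.4, 155, 350, 208 and 15.6 and Hist1h4i at 83.1, 165, 301, 288 and 116. At 20 to 60% their libraries ran from 135 to 668 (median 311) and from 237 to 395 (median 263). Hist4h4, the single member on chromosome 6, was at 4.28, 24.5, 97.0, 91.7 and 8.05, and all its library values at 60 to 80% (48.1, 66.2 and 181 as lowest, median and highest) were above those at 2 to 20% (8.85, 30.7 and 42.2). Hist1h4h reached 148, Hist2h4 48.3, Hist1h4c 40.7 and Hist1h4a 21.4 at 20 to 60%.

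The family make-up shifted away from H2A and toward H2B late in maturation. H2A shares of histone UMIs were 44.2, 58.7, 62.1, 45.4 and 35.3% over the stages, H1 shares 38.2, 24.8, 19.8, 29.9 and 36.9%, and H2B shares 5.76, 5.87, 7.85, 13.4 and 17.3%. H3 held 5.01, 4.96, 4.79, 4.70 and 2.85% and H4 6.80, 5.67, 5.41, 6.69 and 7.62%. The H2B share was higher at 60 to 80% than at 20 to 60% globin in 7 of 7 libraries, by 3.25 to 5.89 percentage points. The H2A share was lower in 5 of 7 and the H1 share higher in 5 of 7. The H1 share at the start depended on 2 libraries. Without libraries 6 and 7 it was 19.2, 17.5, 15.5, 25.9 and 28.1% over the stages, and the H2A share was 65.1, 69.0, 68.6, 51.9 and 42.6%.

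For single members, stages were compared by the log2 ratio of joined levels after adding 10 CPM to both. Genes at 20 CPM or more in either stage were used, relative to the median of them. A call of higher or lower needed a ratio of 2-fold or more over the joined cells, and the same sign in each library holding at least 20 cells in both stages. Between 2 to 20% and under 2% globin, 32 of 35 measured members were higher and 0 lower, with a median log2 ratio of 1.29. Of all 5653 genes measured, 7.55% were called higher and 6.30% lower. The summed histone level was higher by 1.72, with 1.17 to 2.46 over 7 libraries. Hist1h2ap differed by 2.23 and Hist1h1a by 1.5. In CPM over all UMIs, 21 of 33 members were higher, against 4.46% of all genes higher and 10.3% lower.

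Between 20 to 60% and 2 to 20% globin, 28 of 50 measured members were higher and 0 lower, where 6.66% of all measured genes were called higher and 5.56% lower. The median member differed by 1.10 and the summed level by 1.26 (0.41 to 1.45 over libraries). The largest ratios were those of Hist1h2bc (2.08), Hist3h2ba (2.04) and Hist3h2a (1.97). The call rested on the scale, since 5 of 41 members were higher in CPM over all UMIs, globin included (0.896% of all genes higher, 20.5% lower), and 4 of 50 by mean UMIs per cell (0.541 and 28.0%).

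Between 60 to 80% and 20 to 60% globin, 2 of 50 measured members were higher and 1 lower. The higher ones were Hist1h1c (1.33, with 0.82 to 1.90 over 7 libraries) and Hist1h2bc (1.18, with 0.90 to 2.16), and the lower one was Hist1h1a (−1.11, with −1.80 to −0.45). Of all measured genes 12.6% were called higher and 5.79% lower, so the count of members was small on either side. Hist1h2ap had a log2 ratio of −1.04 with libraries from −1.86 to 0.76. The summed level differed by −0.38, and its sign varied between libraries (−1.06 to 0.65). Not relative to the median gene, which itself stood at −0.43, the calls were 0 higher and 3 lower of 50, where 6.36% of all genes were called higher and 16.9% lower. In CPM over all UMIs they were 0 higher and 26 lower of 41, where 1.43% of all genes were higher and 52.6% lower. By mean UMIs per cell they were 0 higher and 39 lower of 50, where 0.468% were higher and 67.5% lower, so on both of these scales most genes were lower too.

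At 80% globin or more against 60 to 80%, 19 of 41 measured members were lower and 0 higher, where 8.39% of all measured genes were called lower and 17.6% higher. The median member differed by −1.06 and the summed level by −1.49 (−2.48 to −1.002 over libraries). Hist1h4d (−2.27), Hist1h2ap (−1.97) and Hist1h2ab (−1.89) had the lowest ratios. Hist1h1c (−0.69), Hist1h2bc (−0.60) and Hist1h4i (−0.42) were not called. Not relative to the median gene, at −0.83, 38 of 41 were lower, against 33.8% of all genes lower and 4.21% higher. Markers of other cells moved with this stage. All 14 neutrophil markers, led by S100a9, had UMIs in every stage from 2% globin on, and their sum was 980, 1712, 3560 and 8540 CPM from the 2 to 20% to the last stage, with a range over libraries of 931 to 21843 in the last. The 14 macrophage markers summed to 82.1, 139, 184 and 345 CPM, with Timd4 at 0 in the first and last of these. The part of such RNA in the last stage's levels was not tested.

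Across the wider span, 60 to 80% against 2 to 20% globin, 20 of 41 measured members were higher and 0 lower, but 22.4% of all 5147 genes measured were called higher and 14.0% lower on the same scale. The median member differed by 1.10 and the summed level by 0.98 (0.16 to 1.68 over libraries). The 6 largest ratios were those of Hist1h2bc (3.36, with 2.88 to 4.16 over libraries), Hist1h1c (2.99, with 2.43 to 3.78), Hist3h2a (2.92, with 0.98 to 3.58), Hist3h2ba (2.60, with 1.73 to 3.35), Hist1h2ac (2.54, with 1.86 to 3.13) and Hist4h4 (2.13, with 1.02 to 2.98). The 6 smallest were those of Hist1h1a (−0.36), Hist1h3a (−0.05), Hist2h2ac (0.26), Hist1h2ap (0.38), Hist1h1b (0.41) and Hist1h3b (0.47), and the libraries lay on both sides of 0 for each of these 6.

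This comparison changed direction with the scale. The median gene stood at −0.57, and not relative to it 8 of 41 members were higher and 0 lower, against 13.6 and 32.7% of all genes. In CPM over all UMIs 1 was higher and 9 lower of 34, against 2.93 and 71.5% of all genes. By mean UMIs per cell 0 were higher and 23 lower of 44, against 1.36 and 79.7%. All genes moved with them, with higher calls making up 61.5% of calls relative to the median gene, 29.3% without that step, 3.94% in CPM over all UMIs and 1.68% per cell. A change of scale shifts the ratios of all genes by about the same amount, apart from the constant added to both levels. The order of members is therefore largely fixed by construction. Hist1h2bc, Hist1h1c, Hist3h2a, Hist3h2ba and Hist1h2ac had ratios above those of Hist1h1a, Hist1h1b and Hist1h2ap on all 4 scales. Without libraries 6 and 7, 16 members of 42 were higher, all of them among the 20, against 23.4% of all genes higher and 14.1% lower.

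**Figure D4:**
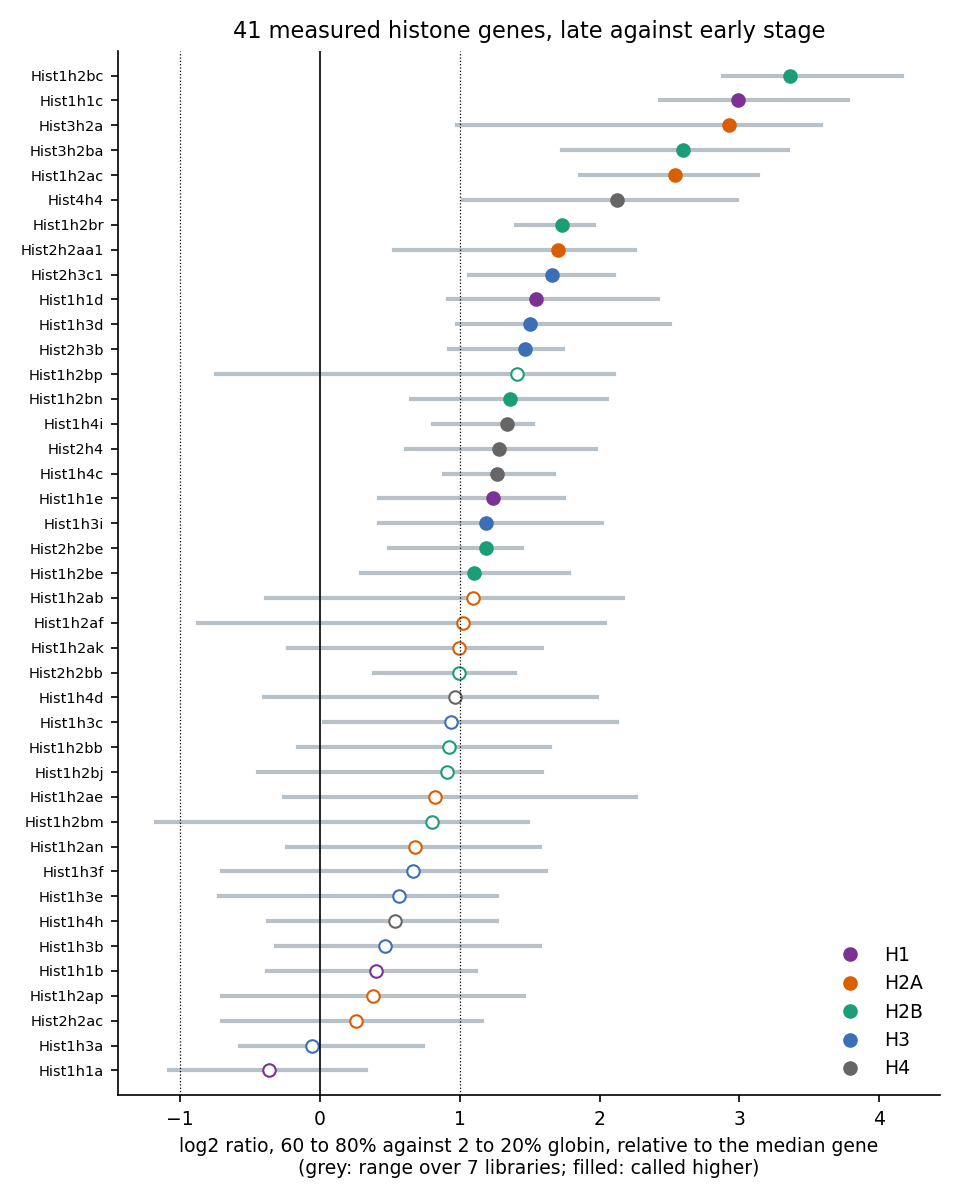
Log2 ratio of joined levels at 60 to 80% against 2 to 20% globin, relative to the median gene, for the 41 measured members, coloured by family; grey bars are the range over 7 libraries and filled points are called higher. Hist1h2bc (3.36) and Hist1h1c (2.99) are at the top and Hist1h1a (−0.36) at the bottom, and on scales that include globin or count per cell the 12 genes with the largest and smallest ratios lie further to the left.

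Members grouped by their annotated 3′ end differed in the same span, where the 100-base limit for a long end was chosen after values had been seen, so the counts are a description. Of 17 measured members with a stem-loop followed by at least 100 annotated bases, 13 were higher at 60 to 80% than at 2 to 20% globin, with a median log2 ratio of 1.34. Of 12 with a loop and a shorter end, 1 was higher, with a median of 0.85. Of 3 with a long end and no loop, 3 were higher (median 1.73), and of 9 with neither, 3 were (median 0.998). In this last group, models such as those of Hist1h1b, Hist1h2ak, Hist1h2an, Hist1h2bn and Hist1h3i have 0 bases after the stop codon. Their lack of a loop or long end is thus a limit of the annotation. Over all genes measured, 22.4% were called higher and 14.0% lower in this span. These counts are relative to the median gene and carry the dependence on scale given above. From 2 to 20% to 20 to 60% globin the medians of the first 2 groups were 1.21 and 1.09. Whether the RNA captured at these genes ended at the loop or beyond it was not tested, since the table holds counts per gene.

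Promoters of 2 linker genes with opposite late behaviour are shown because the H1 genes share motifs near their starts. Each runs from 250 bases before to 50 after the start given by RefSeq on GRCm38.p6, with matches on either strand in capitals to the CCAAT box, the TATAAA box, the octamer ATTTGCAT and the motif AAACACA found in H1 promoters.
Hist1h1c: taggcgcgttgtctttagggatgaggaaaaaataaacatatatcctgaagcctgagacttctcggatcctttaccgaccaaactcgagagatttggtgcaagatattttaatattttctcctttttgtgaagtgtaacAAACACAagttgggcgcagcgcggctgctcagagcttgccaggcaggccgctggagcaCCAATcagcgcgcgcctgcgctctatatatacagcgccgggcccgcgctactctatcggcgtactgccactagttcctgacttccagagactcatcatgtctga
Hist1h1b: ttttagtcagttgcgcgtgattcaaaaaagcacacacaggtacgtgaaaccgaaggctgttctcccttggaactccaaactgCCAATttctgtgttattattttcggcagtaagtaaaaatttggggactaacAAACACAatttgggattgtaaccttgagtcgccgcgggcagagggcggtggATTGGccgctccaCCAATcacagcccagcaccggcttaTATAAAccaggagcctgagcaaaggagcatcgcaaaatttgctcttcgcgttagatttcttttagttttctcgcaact
They lie at chr13:23738557-23738856 on the plus strand and chr13:21780576-21780875 on the minus strand. Both hold AAACACA, which 5 of 6 H1 promoters hold against 7.18% of all 32851 RefSeq promoters of this length. CCAAT was found in 84.7% of the 59 members with a promoter against 37.4% of all promoters, with 3 of 12 H4 promoters holding it. TATAAA was found in 55.9% against 13.6%, and the octamer in 20.3% against 1.74%, in 6 H2A and 6 H2B promoters. Of the 5 members highest at 60 to 80% globin by stage, all 4 with a promoter in the table hold CCAAT, as do 92.5% of the named members that peak at 20 to 60%. A match is a description of these letters and not of a bound site.

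Early erythroblasts at 2 to 20% globin held more histone RNA than the other dividing classes of the preparation joined, which mix dividing cells with others. Other classes were taken as dividing when they had at least 100 cells and at least 25% with a UMI of Mki67 or Top2a. This took 12 classes, of which 3 are clusters left unnamed, and 10966 cells. The limit was applied to cells as counted, so it depends on depth. After thinning to 500 UMIs outside globin, T and NK-like cells had 6.87% with such a UMI, less than macrophage-like cells (7.65%), which had been left out, while the other 11 classes taken had 13.6 to 34.8%. Early erythroblasts had 74.6%, so the share of cells with such a UMI was unlike on the 2 sides. The joined histone level of the 12 classes was 2003 CPM (997 to 2600 over libraries) against 8574 (5205 to 13657) in the early erythroblasts. Cells high in both the replication and mitosis lists, split as described below, reached 10965 CPM in pro/pre-B-like cells (121 cells). In basophil/mast-like cells they reached 9520 (12 cells), and in the other dividing classes 6798 or less. Such cells had 13032 CPM in the early erythroblasts (66 cells). Of 35 measured members, 27 were higher in early erythroblasts and 1 was lower, where 14.4% of all measured genes were called higher and 25.4% lower. The summed level differed by 1.71 (1.70 to 2.39 over 7 libraries) relative to the median gene, which itself stood at 0.38. Without libraries 6 and 7 it differed by 2.01. Without the T and NK-like cells it differed by 1.65, and 22 of 35 members were higher and 1 lower, against 14.1 and 25.3% of all genes. Hist1h1a (2.67, with 2.45 to 3.31 over libraries) and Hist1h1b (2.46, with 2.23 to 3.05) had the largest ratios of the 35. The lower member was Hist1h2bc (−1.11, with −1.54 to −0.53), a call absent without libraries 6 and 7, and Hist1h1c had −0.60 (−1.08 to 0.12).

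Among the dividing classes, pro/pre-B-like cells were highest with 6975 CPM (622 cells, 2741 to 9560 over 5 libraries) and basophil/mast-like cells next with 4635 (128 cells, 3650 to 5944 over 3). These ranges overlap each other and that of the early erythroblasts. Granulocyte-monocyte progenitor-like cells had 2737, megakaryocyte-like cells 2560, cluster 18 (led by Fcnb and Elane) 2528, monocyte-like cells 2480, stem and multipotent progenitor-like cells 2000, cluster 19 (led by Cd34 and Ifitm1, median 748 UMIs) 1675 and cluster 13 (led by H2-Eb1 and H2-Aa) 1396 CPM. Neutrophil-like cells had 1320, plasma-like cells 1091 and T and NK-like cells 1006. Of the classes below the limit, as applied before thinning, dendritic-like cells had 923, mature B-like cells 879 and macrophage-like cells 763. A class of 61 endothelial and stromal-like cells, too few for the limit and with 24.6% holding a marker UMI, had 451.

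**Figure D5:**
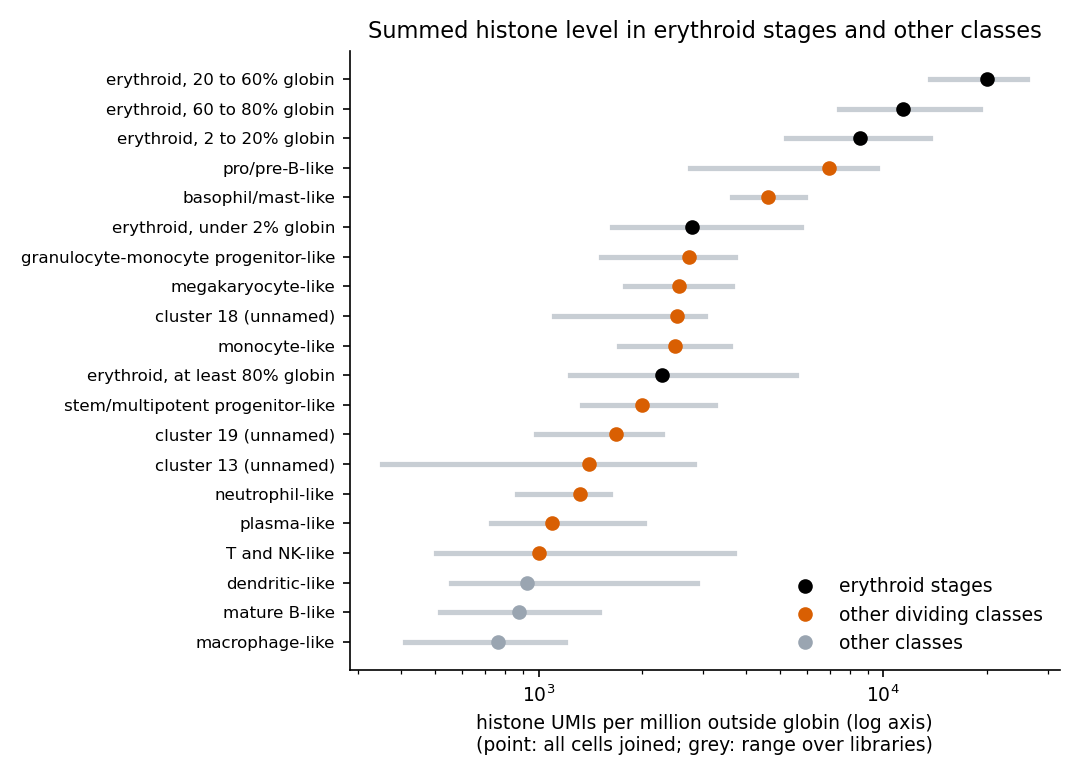
Summed histone level in CPM outside globin (log axis) for the 5 erythroid stages (black), 12 other dividing classes (orange) and 3 classes below the limit on division markers (grey); points join all cells and grey bars span the libraries with at least 20 cells. The 3 erythroid stages from 2 to 80% globin are above the joined level of each other class, and the bars of pro/pre-B-like and basophil/mast-like cells overlap that of the 2 to 20% stage. The class of 61 endothelial and stromal-like cells is not drawn.

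Set against each class in turn, early erythroblasts had more members higher than lower in all 12. The counts higher were 32 of 35 against cluster 13 (where 18.1% of all genes were called higher and 26.9% lower), 30 against stem and multipotent progenitor-like cells (17.4 and 21.3%), 27 against monocyte-like cells (18.5 and 27.0%), 27 against cluster 19 (15.6 and 15.5%) and 26 against T and NK-like cells (19.7 and 23.8%). They were 24 against granulocyte-monocyte progenitor-like (16.9 and 21.8%) and 23 against megakaryocyte-like cells (12.4 and 13.8%), 15 against neutrophil-like cells (17.2 and 26.7%), 12 against cluster 18 (13.2 and 22.4%) and 10 against plasma-like cells (14.2 and 18.2%). The 2 classes with the highest histone levels gave 13 of 36 (pro/pre-B-like, 17.0 and 19.4%) and 10 of 36 (basophil/mast-like, 16.0 and 24.2%). The lower calls were 2 against basophil/mast-like cells, 1 each against 6 classes and 0 against 5.

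The members that led differed by class. Hist1h2ap held the most histone UMIs in 10 of the 12 dividing classes. Hist1h1c led in plasma-like cells (431 CPM, 39.5% of their histone UMIs, and 35.9% without libraries 6 and 7). In megakaryocyte-like cells Hist1h2bc led (626 CPM, 24.5%), but libraries 6 and 7 gave 9115 of the 9894 histone UMIs there, and without them Hist1h2ap led with 28.9% against 20.2% for Hist1h2bc. Hist1h1c was at 1226 CPM in pro/pre-B-like and 656 in basophil/mast-like cells, against 223 in early erythroblasts and 1237 at 60 to 80% globin. Compared class by class, early erythroblasts were lower in Hist1h1c than basophil/mast-like (−1.74), plasma-like (−2.16) and neutrophil-like cells (−1.01), and lower in Hist1h2bc than basophil/mast-like (−2.67), megakaryocyte-like (−2.71), monocyte-like (−1.66) and stem and multipotent progenitor-like cells (−1.39). From 13.8 to 27.0% of all genes were called lower in these 6 comparisons. Hist3h2a was lower than in pro/pre-B-like cells (−1.93), where it stood at 121 CPM and where 19.4% of all genes were called lower.

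Within a stage, joined cells high in mitosis transcripts alone had a higher histone level in CPM than joined cells high in replication transcripts alone. Cells with at least 1000 UMIs outside globin were split at the 75th percentile of the replication and mitosis lists, which are ranges and not cell types. At 2 to 20% globin the histone level was 8418 CPM in the replication-high range (301 cells), 11779 in the mitosis-high range (301 cells) and 7479 in cells high for neither (800 cells). At 20 to 60% it was 17360, 28690 and 18662 (729, 729 and 1560 cells). Library values of the replication-high and mitosis-high ranges overlapped in both stages. They ran from 4724 to 12297 and from 5835 to 21509 CPM at 2 to 20%, and from 11361 to 24173 and from 20375 to 36627 at 20 to 60%. Median UMIs outside globin at 2 to 20% were 13323 in the replication-high and 8068 in the mitosis-high cells. These 2 ranges were not compared with each other per cell. Cells high for both lists had 13032 CPM at 2 to 20% (66 cells), above the mitosis-high range. They had 20598 at 20 to 60% (34 cells), below it. Relative to the neither range the mitosis-high sum differed by 0.59 (log2) at 20 to 60%, but by −0.054 as mean UMIs per cell. Globin shares moved with the ranges, with medians of 38.0, 51.6 and 40.4% in that stage, and their part in the difference was not tested. Of 53 measured members, 5 were higher in the mitosis-high range at 20 to 60%, where 1.28% of all genes were called higher and 5.04% lower. They were Hist3h2ba (1.29), Hist3h2a (1.26), Hist1h1c (1.12), Hist1h2bc (1.12) and Hist1h2bn (1.06). At 2 to 20% only Hist3h2a was higher (1.21), 1 of 36 members against 0.336% of all genes (0.651% were lower), and without libraries 6 and 7 there were 6 of 41 (1.22% of all genes higher, 1.20% lower). In the replication-high range no member passed the 2-fold rule in either stage, where 0.0997 and 1.48% of all genes were called higher and 0.0199 and 0.613% lower. The split was shallow at 2 to 20%, with the replication list at 13361 against 9654 CPM and 28.0% of cells close to its limit. Only 1 of the 36 replication genes was itself called higher there. In granulocyte-monocyte progenitor-like cells the levels were 3810 in the replication-high, 2395 in the mitosis-high and 2367 in the neither range, with Hist1h2ae (1.04) and Hist1h1a (1.06) higher in the first, 2 of 18 members against 0.144% of all genes (0.0206% were lower). In neutrophil-like cells 4 of 9 measured members, Hist1h1b (2.51), Hist1h2ap (2.14), Hist1h2ae (1.32) and Hist1h1d (1.26), were higher in the replication-high range, where 12.5% of all genes were called higher and 8.02% lower. In their mitosis-high range 4 were higher, Hist1h1b (2.41) and Hist1h2ap (1.77) among them, and Hist2h2aa1 (−1.32) was lower, against 8.39 and 9.44% of all genes. In T and NK-like cells Hist1h2ap (1.25) was 1 of 8 members higher in the mitosis-high range (0.222% of genes higher, 0.187% lower), and none of 5 was called in the replication-high range (0.349% higher, 0.209% lower). In cluster 18 none of 16 and none of 15 members were called in the replication-high range (0.0918% of genes higher, 0.206% lower) and the mitosis-high range (0.253% higher, 0.161% lower).

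Genes that act on histones moved in their own ways between 2 to 20% and 60 to 80% globin, where 22.4% of all genes were called higher and 14.0% lower relative to the median gene. Of the 36 replication genes 32 were lower, and Mcm3, a subunit of the MCM helicase, went from 528 to 24.8 CPM. Of 27 measured genes for histone mRNA processing, 10 were lower and 1 higher. Slbp, whose product binds the stem-loop, was at 319, 646, 677, 103 and 44.0 CPM over the stages (log2 ratio −1.97, with −3.27 to −0.83 over libraries). Snrpg and Snrpb, which encode Sm proteins of small nuclear RNPs, had ratios of −2.39 and −1.97. Zcchc6, a uridyltransferase that acts in RNA decay, was the higher one (2.28) and went from 307 to 1028 CPM.

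Of 27 measured histone chaperones and related genes, 12 were lower and 2 higher. Nasp, which binds free histones, had a ratio of −3.19, Hat1, an acetyltransferase of new H4, −2.66, Chaf1b, a subunit of the assembly factor CAF-1, −2.46 and Ssrp1, a subunit of the FACT complex, −2.14. Histone variants encoded outside the clusters, whose mRNAs are in part made outside S phase, were 4 higher and 0 lower of 9 measured. These were H3f3a (2.03, from 3647 to 10089 CPM), Cenpa (1.55), H2afx (1.43) and H2afj (1.38). The variants summed to 11581 CPM at 2 to 20%, 19607 at 20 to 60% and 18288 at 60 to 80%. Of 31 measured genes linked to erythroid chromatin condensation and enucleation, 8 were higher and 2 lower. Xpo7, a nuclear exporter, had a ratio of 5.70 and went from 90.3 to 3506 CPM, and Trim58 (3.28), Foxo3 (2.87) and E2f2 (2.34) followed. Of 25 mitosis genes 9 were higher and 0 lower, led by Ube2c (2.63) and Cenpf (2.18). These lists share a few genes, and the ratios carry the same dependence on scale as those of the members.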

How the data were processed

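Single-cell RNA was measured in erythroblastic island preparations. The values are unnormalized UMI counts in a single matrix as deposited by the authors, made with Cell Ranger 5.0.0 and Seurat 3.1.5 on mm10 per the submitters' processing notes. The cells in the table have at least 500 UMIs and 201 genes. The cell filters that were applied are not described in those notes. No column of per-sample values was left unused (0).

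The members and gene lists were chosen with earlier results of these data known. Cells were clustered without the members with scanpy 1.11.5 and leidenalg 0.10.2 in Python 3.11.15 (2000 variable genes, 30 components, 15 neighbours, resolution 1), giving 32 clusters. Of these 3 stayed unnamed. Scrublet marked 17 cells, 0.0682%, which is too few to be relied on, and no cell was removed. 1031 cells, 266 of them erythroid, have a barcode that occurs more than once. Ratios were formed after adding 10 CPM, for genes at 20 CPM or more in either group, with calls only where at least 3 libraries could be compared. The ratio script was tested on simulated data. Every member at 20 CPM or more in a stage or dividing class is named, the 12 most abundant and the 6 largest and 6 smallest late ratios are given over stages and libraries, and up to 4 genes are named from each list. Intervals are exact Poisson at 95%. Sequences are from RefSeq (GRCm38.p6 promoters, 64 members matched) and the annotated ends from GENCODE M21. Alternatives for scale, thresholds, clustering, cell filters, stage limits and single libraries were computed, and leaving out libraries 6 and 7 together, or T and NK-like cells from the dividing classes, was added after the data had been seen.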

Additional observations from a re-analysis of the deposited data

How the results depend on the processing

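Log2 ratios of summed histone levels and counts of called members depended mainly on the scale. Between 60 to 80% and 2 to 20% globin the sum went from 0.98 to −1.13 in CPM over all UMIs and −1.55 as mean UMIs per cell. The members higher went from 20 of 41 (22.4% of all genes) to 1 of 34 (2.93%) and 0 of 44 (1.36%) on these scales. They were 8 of 41 (13.6%) when not taken relative to the median gene and 9 with no minimum level. With stage limits at 5, 30, 65 and 85% globin that sum was 0.38 and the count 8. Between 20 to 60% and 2 to 20% the sum went from 1.26 to 0.63 in CPM over all UMIs and 0.44 per cell. The members higher went from 28 of 50 (6.66% of all genes) to 5 of 41 (0.896%) and 4 of 50 (0.541%). For 2 to 20% against under 2%, the count went from 32 of 35 (7.55% of all genes) to 21 of 33 (4.46%) in CPM over all UMIs. Between 60 to 80% and 20 to 60% the sum went from −0.38 to −1.76 and −1.99 on the same 2 scales. For the last stage it went from −1.49 to −3.85 and −3.80, to −2.32 when not relative to the median gene and to −2.30 with no minimum level. The members lower went from 19 of 41 (8.39% of all genes) to 38 of 41 (33.8%) when not relative to the median gene. They were 31 of 32 (80.4%) per cell, 31 at a minimum level of 5 and 41 with none. For counts with other minimum levels or stage limits, no share of all genes is given here. Hist4h4 reversed from 2.13 to −0.054 per cell. These scales differ by construction in whether globin or RNA content per cell enters.

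Early erythroblasts against other dividing classes gave 1.71, and 2.09 when not relative to the median gene, 1.999 per cell, 2.10 with no minimum level, 2.08 with the other stage limits and 2.01 without libraries 6 and 7. For the mitosis-high range at 2 to 20% globin the sum of 0.63 became 0.34 per cell and 0.88 without libraries 6 and 7, and at 20 to 60% the sum of 0.59 became 0.30 in CPM over all UMIs, −0.054 per cell, 0.45 with the other stage limits and 0.74 at the 60th percentile. The replication-high sum at 2 to 20% was 0.17 over the joined cells, above all 5 libraries compared, which ran from −0.13 to 0.11. This joined sum became −0.0070 with the other stage limits and 0.27 at the 60th percentile. Leaving out each library in turn gave 0.046 (without library 3) to 0.22 for that sum and 0.50 to 0.90 (without library 7) for the mitosis-high sum. The count of members higher in the mitosis-high range went from 1 of 36 (0.336% of all genes) to as many as 7, without a share of all genes. The cause of these last shifts was not tested. Of 564 alternative values for the main results 526 stayed within their limits, and of 379 for single genes and other values 327 did. No paired analysis was possible because the columns carry no group or replicate number of the labels. The only pairing is that of stages and classes within each unnamed library. The depth of the last stage, a median of 812 UMIs outside globin per cell, limits what can be seen there.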
